A study of Mus musculus with 4 samples.

Results

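The 45 genes described here encode, from the nucleus, the subunits and assembly factors of mitochondrial complex IV (cytochrome c oxidase) and of the ATP synthase. They were taken by name from the authors' table of expressed genes, as every entry starting with Cox and a digit or with Atp5, plus Surf1, Sco1, Sco2, Atpif1, Atpaf1 and Atpaf2. This gave 45 of 11536 genes in that table, which holds the genes with at least 1 CPM (a gene's reads scaled to the same total in each library) in at least 2 libraries, out of 43430 genes counted. No measured difference was used to choose them. All 45 also passed the filter on low counts used for testing.

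RNA had been sequenced from CD4+CD8+ double-positive thymocytes sorted from C57BL/6 mice, 1 library per mouse. The knockout group (KO, 2 mice) carried floxed Uqcrfs1 on both alleles and CD4-Cre, and the control group (WT, 2 mice) is labelled wild type while the description of the series calls the controls heterozygous littermates. "WT" is therefore used only as the name of the group. The CD4 promoter drives Cre in T lineage cells from about the double-positive stage, so protein made before the deletion can persist in such cells, and protein was not measured. The sources used here give no age or sex.

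Complex IV is the last enzyme of the respiratory chain. It takes electrons from cytochrome c, which complex III has reduced, and passes them through heme A and copper centres to oxygen while pumping protons. The ATP synthase lets those protons flow back through its ring of c subunits and couples the rotation to ATP synthesis in its F1 head. The catalytic core of complex IV and the subunits a and 8 of the ATP synthase are encoded by mitochondrial DNA, and the remaining subunits and all assembly factors by nuclear genes. Uqcrfs1, the deleted gene, encodes the Rieske iron-sulfur protein of complex III, which stands upstream of complex IV in the chain.

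Uqcrfs1 stood at 61.4 and 57.2 CPM in WT libraries 1 and 2 and at 15.6 and 18.6 CPM in KO libraries 1 and 2, and it fell by 1.80 on the log2 scale (standard error, SE, 0.09, adjusted p = 0.000178). The libraries held 30408863 to 34080516 reads assigned to genes, and the sort had a purity above 98% per the description of the series. The 7 markers of double-positive thymocytes summed to 14530 and 15770 CPM in WT, against 15310 and 15410 CPM in KO. Of these 7, 3 had both KO libraries below both WT libraries, against 20.1% of all genes, and 0 had both above, against 20.4%. Those 3 were the co-receptor genes Cd8a (log2 change -0.10, SE 0.04) and Cd8b1 (-0.092, SE 0.04) and the receptor component Cd3e (-0.11, SE 0.05). Their changes were about the median of the 45 genes given next. The part of these markers in the results was not tested. Markers of double-negative thymocytes, 10 genes, summed to 231 and 233 CPM in WT, against 249 and 299 CPM in KO. Of the 9 that were tested, 4 had both KO libraries above both WT libraries, against 20.4% of all genes, and 1 had both below, against 20.1%. Myeloid markers, 12 genes, summed to 26.5 and 23.1 CPM in WT, against 23.2 and 54.9 CPM in KO, and the part of either list in the results was not tested. B cell markers summed to 25.6 to 29.5 CPM and stromal markers to 144 to 157 CPM over the libraries, and the 6 erythroid markers to at most 0.221 CPM. Both KO libraries lay above both WT libraries in 1 of 7 tested myeloid, 2 of 4 tested B cell and 1 of 3 tested stromal markers, against 20.4% of all genes. In 1 of the 3 tested stromal markers both lay below, against 20.1%. Of 5 muscle markers, looked up because muscle carries its own complex IV isoforms, Ckm, Myh4 and Des had 0 counts in every library. Tnnt3 was read at 4.45 to 5.80 CPM and Acta1 at 0.132 to 0.252 CPM.

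Of the 45 genes, 41 had a fitted log2 change below 0 in KO and 4 above it, against 50.1% of all 13281 genes tested below 0. The size was small. The median log2 change was -0.099 over the 45 genes and 0.00 over all genes (quartiles -0.083 and 0.087). No member passed the adjusted threshold of 0.05, which 0.0226% of all genes passed, and the smallest adjusted p among the members was 0.443, for Cox6b2. With an unadjusted p under 0.05, 9 members were lower and 0 higher, against 4.01% and 4.4% of all genes, and the adjusted p-values of these 9 ran from 0.443 to 0.585. In 22 members both KO libraries lay below both WT libraries, against 20.1% of all genes, and in 1 member, Cox11, both lay above, against 20.4%. The summed level of the 45 genes was 4961 and 4601 CPM in WT and 4514 and 4554 CPM in KO, which puts the KO mean at 94.8% of the WT mean. The KO libraries sat close together below both WT libraries, and WT library 1 stood farther from WT library 2 than that one stood from either KO library. In such bulk libraries, fewer cells of a type and less RNA per cell cannot be told apart.

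**Figure D1:**
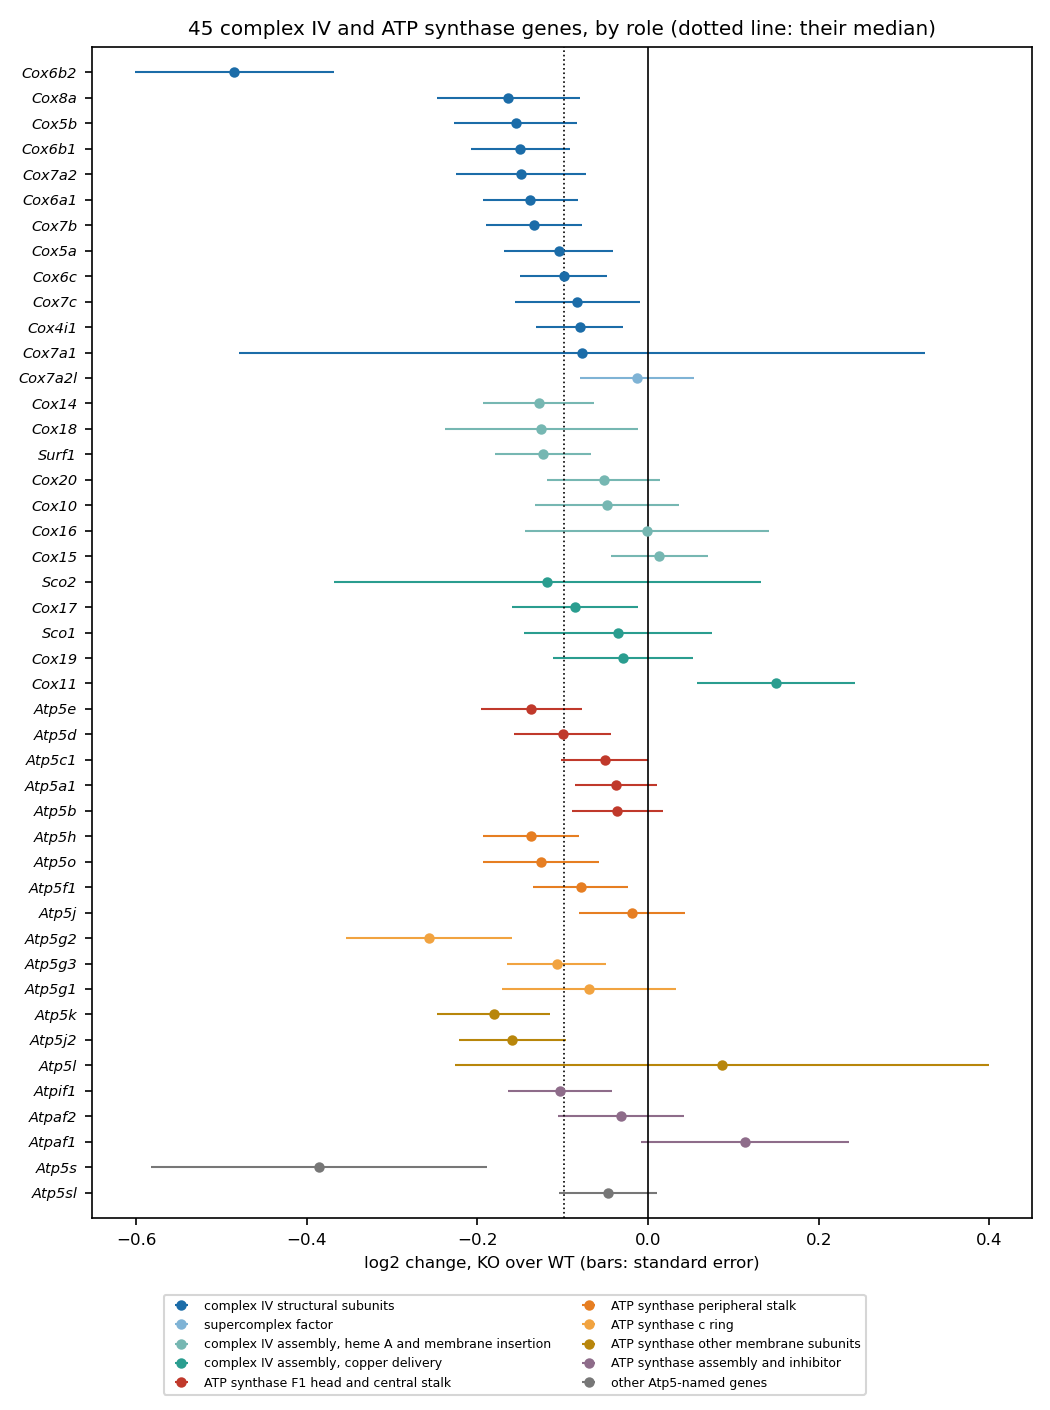
The log2 change of KO over WT (x axis) is drawn for each of the 45 genes, grouped and coloured by role, with bars for 1 standard error. All but 4 points lie left of 0, and the dotted line at -0.099 is the median.

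Structural subunits and the other members were compared next. Of 27 subunits of both complexes 26 were lower, with a median log2 change of -0.11. In 16 of them the groups did not overlap, with KO lower, against 20.1% of all genes. Of the 18 other members, which are assembly factors, the inhibitor and a few genes with other roles, 15 were lower, with a median of -0.047. In 6 of the 18 the groups did not overlap, with KO lower, against 20.1% of all genes. In 1 of the 18, Cox11, they did not overlap with KO higher, against 20.4%. All 9 members with an unadjusted p under 0.05 were structural subunits. The difference between these classes was not tested.

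The position of single libraries matters for values of this size. WT library 1 was the highest of the 4 libraries in 35 of 45 members and in 25 of 27 structural subunits, a place it took in 30.4% of all genes. The median log2 difference of WT library 1 over WT library 2 was 0.11 over the members and -0.002 over all genes. The mean of the KO libraries lay at a median of -0.13 against WT library 1 and at -0.043 against WT library 2. The KO libraries differed from each other by a median of -0.003. Without WT library 1, the fit gave a median of -0.047, with 35 members lower, against 49.7% of all genes. In that fit 2 members were lower with an unadjusted p under 0.05, a share near the 4.12% of all genes. Without WT library 2 it gave -0.14, with 40 lower, 24 of them with an unadjusted p under 0.05, against 9.61% of all genes. In that fit 6 members passed the adjusted threshold (Atp5h, Atp5j2, Atp5o, Cox5b, Cox6a1 and Cox7a2), against 2.65% of all genes, so calls were more frequent over all genes as well. With 1 library left in a group, these p-values rest on the spread of the other group's 2 libraries, and the lone library is assumed to vary like them. Without KO library 1 or KO library 2 the medians were -0.089 and -0.11. So the spread between the WT libraries was as large as the group difference, while the median stayed below 0 in each of these 4 fits.

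**Figure D2:**
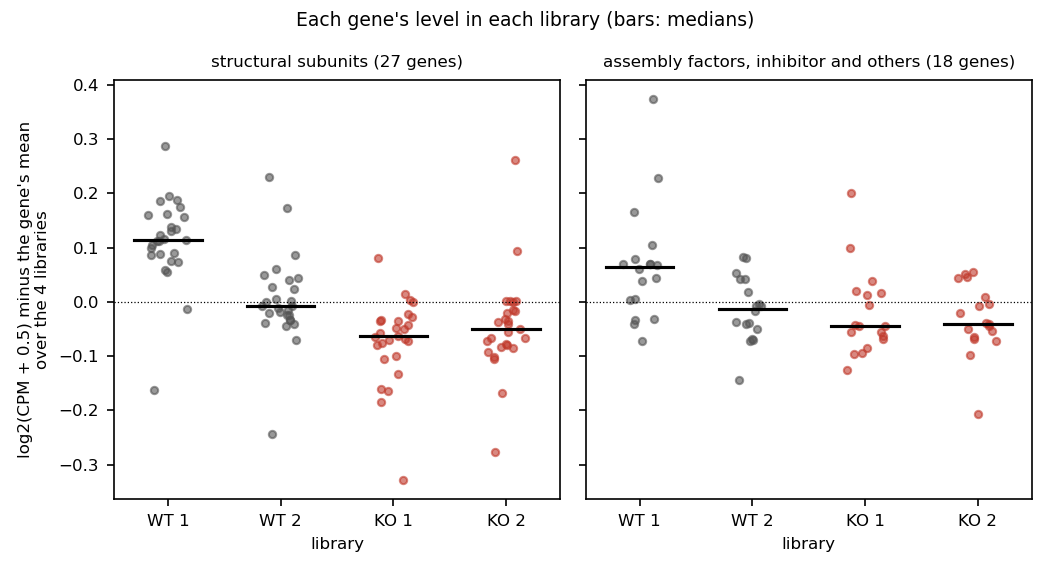
Each point is 1 gene, and the y axis gives its log2(CPM + 0.5) in a library minus its mean over the 4 libraries, for the 27 structural subunits (left) and the 18 other members (right), with bars for medians. WT library 1 stands highest, at a median of 0.11 among the structural subunits, and WT library 2 lies between it and the KO libraries.

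**Figure D3:**
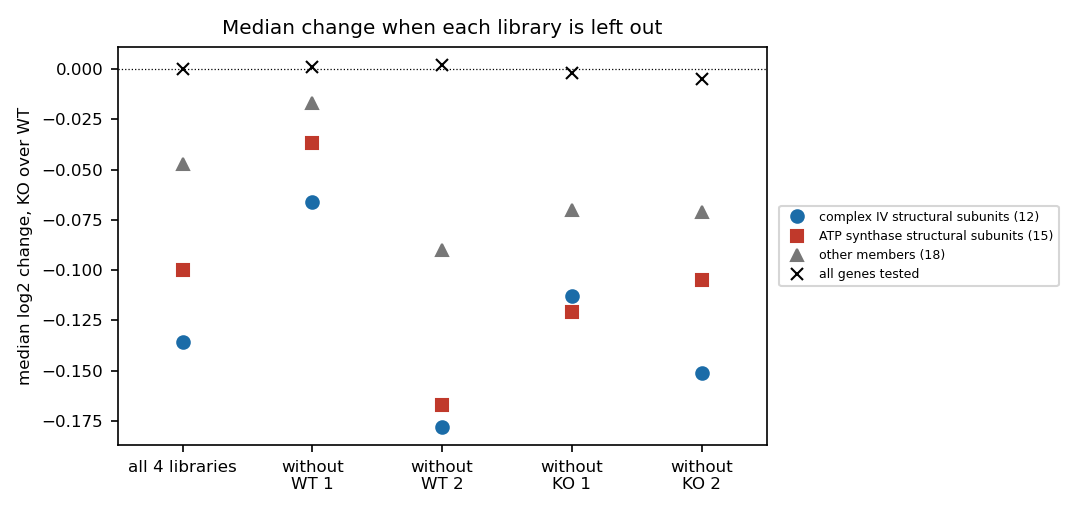
The y axis gives the median log2 change of KO over WT with all 4 libraries and with each left out in turn, for complex IV structural subunits, ATP synthase structural subunits, the other members and all genes tested. The 3 groups of members stay below 0 in every fit and come closest to it without WT library 1.

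A share of reads outside annotated exons moved with the groups. It was 17.2% and 18.6% of uniquely aligned reads in WT libraries 1 and 2 and 20.6% and 19.9% in KO libraries 1 and 2, and its part in the differences was not tested. Differences by gene length were seen between the groups and also between the WT libraries. WT library 1 over WT library 2 had a median log2 difference of 0.053 for all genes with 1 to 2 kb of exon sequence. For all genes above 4 kb it was -0.029. Among all genes, those with 1 to 2 kb of exon sequence had a median log2 change of -0.063 and 65.8% of them were lower, while genes above 4 kb had a median of 0.024 and 39.99% lower. Of the members, 24 have at most 2 kb. Members with up to 1 kb were lower in 8 of 8 cases with a median of -0.14, against -0.021 for all genes of that length. Members of 1 to 2 kb were lower in 15 of 16 with a median of -0.12, and those of 2 to 4 kb in 14 of 15 with a median of -0.047 against -0.032 for all. The 6 longest were lower in 4 cases, with a median of -0.052. In each class the members' median lay below that of all genes, and in each class the members were also higher in WT library 1 than in WT library 2, by a median of 0.076 to 0.12. With a length offset in the fit, 42 members were lower with a median of -0.10, against 58.8% of all genes and a median of -0.024.

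**Figure D4:**
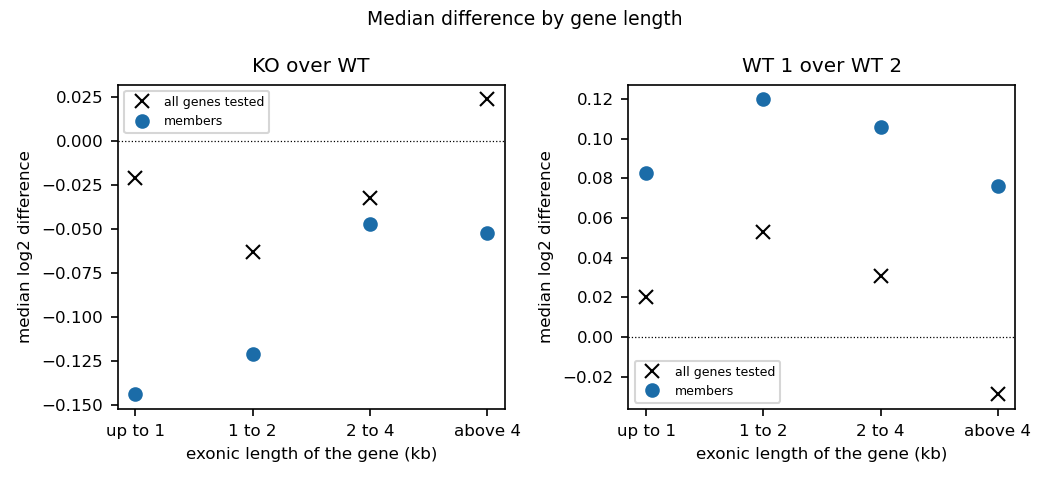
Genes are split by exonic length in kb (x axis), and the y axis gives the median log2 difference of KO over WT (left) and of WT library 1 over WT library 2 (right) for the members and for all genes tested. The members lie below all genes in each class on the left and above them in each class on the right.

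Among the 12 structural subunits of complex IV, 12 were lower, with a median log2 change of -0.14. Of them, 8 were lower without overlap (20.1% of all genes) and 4 lower with an unadjusted p under 0.05 (4.01% of all genes). Their sum was 1110 and 1019 CPM in WT, against 966 and 988 CPM in KO, so the KO mean was 91.8% of the WT mean. Cox6b2, the isoform of subunit VIb known from testis, showed the largest log2 change of any member. It lies at chr7:4751792-4753094 (mm10, minus strand) and was read at 11.7 and 10.8 CPM in WT, against 8.30 and 7.75 CPM in KO. Both KO libraries were well below both WT libraries, at 71.5% of the WT mean, with a log2 change of -0.49 (SE 0.12, unadjusted p = 0.0027). It ranged from -0.55 to -0.43 as each library was left out. Cox6b2 was the only member called by any fit of all 4 libraries, with an adjusted p of 0.0349 when no filter on low counts was applied. Without that filter 0.911% of all genes were called, against 0.0226% with it, so calls were more frequent over all genes as well.

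Cox6b1, the ubiquitous isoform of the same subunit, which sits on the side that faces cytochrome c, was far more abundant per length. Its levels per kb of the principal transcript averaged 160 CPM per kb against 16.5 for Cox6b2. It measured 106 and 102 CPM in WT libraries 1 and 2, then 89.8 and 97.4 CPM in KO libraries 1 and 2, with both KO libraries lower and a log2 change of -0.15 (SE 0.06, adjusted p = 0.553). The isoforms thus lay on the same side of 0, and the difference between their changes was not tested.

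Cox6a1, a regulatory subunit at the dimer interface, was read at 147 and 135 CPM in WT, against 128 CPM in each KO library, a log2 change of -0.14 (SE 0.06). The KO libraries were nearly equal and WT library 1 was the highest. Cox7b, a small membrane subunit, had 77.7 and 73.6 CPM in the WT libraries and 69.9 and 68.1 CPM in the KO libraries, and the groups did not overlap (log2 change -0.13, SE 0.06). Cox4i1 is a subunit that joins the mitochondrially encoded core early. Per kb of the principal transcript it had the highest level of this class, at 312 CPM per kb. Per kb of all exon sequence it stood at 154.2, below Cox6a1 at 191.6 and Cox8a at 154.6. Cox4i1 was read at 254 and 238 CPM in WT, against 232 and 233 CPM in KO. Its log2 change was -0.080 (SE 0.05), with WT library 2 only slightly above the KO libraries.

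The other tissue isoforms were read at about 1 CPM or less. Cox7a1, the heart and muscle isoform, measured 0.88 and 1.32 CPM in WT libraries 1 and 2, then 0.73 and 1.36 CPM in KO libraries 1 and 2, so the groups overlapped and the libraries of each group differed from each other. Cox7a2, its ubiquitous partner, had 99.0 and 84.2 CPM in the WT libraries and 83.9 and 81.4 CPM in the KO libraries. Here WT library 2 was level with KO library 1, and the log2 change was -0.15 (SE 0.08). Outside the 45 genes, Cox6a2, the muscle isoform of subunit VIa, had 24 to 34 counts per library and Cox4i2, the lung isoform of subunit IV, 1 to 3. Cox8b and Cox7b2 had 0 counts in every library, which allows up to 0.0232 CPM over the 4 libraries. Cox8a, the ubiquitous form of subunit VIII, was read at 109 and 93.1 CPM in WT, against 85.2 and 95.4 CPM in KO. KO library 2 exceeded WT library 2, so its groups overlapped in spite of a log2 change of -0.16 (SE 0.08). Cox7a2l, a supercomplex factor that joins complex III to complex IV, measured 105 and 94.6 CPM in WT libraries 1 and 2, then 94.9 and 103 CPM in KO libraries 1 and 2. Each group held 1 high and 1 low library, and the log2 change was -0.013 (SE 0.07).

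The 7 factors of heme A synthesis and membrane insertion had a median log2 change of -0.052, with 6 lower. In 2 of them, Surf1 and Cox14, the groups did not overlap, with KO lower, against 20.1% of all genes. Surf1, an early assembly factor whose loss causes Leigh syndrome, was chosen by the rule of non-overlap after its values were seen. It had 56.7 and 56.1 CPM in the WT libraries and 51.5 and 52.0 CPM in the KO libraries, with little spread inside either group (log2 change -0.12, SE 0.06, adjusted p = 0.608). Cox14, which couples synthesis of the first core subunit to assembly, was read at 36.3 and 37.2 CPM in WT, against 33.8 and 33.4 CPM in KO. It is among the few members in which WT library 1 was not the highest, and both KO libraries were lower (log2 change -0.13, SE 0.06). Cox20, a chaperone of the second core subunit, had the highest level of the class per kb of the principal transcript. Per kb of all exon sequence it lay below Cox14 (44.4 against 48.6). In its transcript, 68.2% of the 50-base words also occur in annotated transcripts of other genes, mostly of its antisense neighbour Hnrnpu. Cox20 measured 40.9 and 39.0 CPM in WT libraries 1 and 2, then 39.6 and 37.5 CPM in KO libraries 1 and 2. Its groups overlapped. The remaining members of the class, Cox10, Cox15, Cox16 and Cox18, had log2 changes from -0.13 to 0.013, with overlapping groups.

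Of the 5 copper delivery factors, 4 were lower, with a median log2 change of -0.035. Cox11, which brings copper to the first core subunit, went the other way. It stood at 14.0 CPM in each WT library and at 15.8 and 15.2 CPM in KO, so both KO libraries were higher, with a log2 change of 0.15 (SE 0.09, adjusted p = 0.684). The change was 0.12 to 0.18 as each library was left out. Cox11 overlaps Tom1l1 on the opposite strand and shares 50.5% of its 50-base words with other transcripts, and the sources used here do not say whether counting used strand, so its level is uncertain. Cox17, Cox19, Sco1 and Sco2 had log2 changes from -0.12 to -0.029, and of these Cox17 alone had groups that did not overlap.

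The 15 structural subunits of the ATP synthase summed to 3258 and 3014 CPM in WT, against 2991 and 3003 CPM in KO, which puts the KO mean at 95.6% of the WT mean, and 14 of them were lower. WT library 2 was much closer to the KO libraries than to WT library 1. The median log2 change was -0.10. The 5 subunits of the F1 head and central stalk were lower in 5 of 5 cases, with a median of -0.051. Of these, 2 were lower without overlap, against 20.1% of all genes. Atp5b, the catalytic beta subunit, had the highest level of all 45 genes per kb of the principal transcript, at 476 CPM per kb. Per kb of all exon sequence of a gene, Atp5a1 stood first at 245.5 and Atp5b next at 215.3. Atp5b had 961 and 886 CPM in the WT libraries and 890 and 912 CPM in the KO libraries. Both KO libraries exceeded WT library 2, and the log2 change was -0.036 (SE 0.05). Atp5e, the small epsilon subunit at the foot of the central stalk, was read at 74.3 and 69.8 CPM in WT, against 67.0 and 64.0 CPM in KO. Both KO libraries were lower, with a log2 change of -0.14 (SE 0.06). The large subunits of the head, the alpha subunit Atp5a1 (-0.038) and Atp5b, lay nearer to 0 in log2 change than Atp5e and the delta subunit Atp5d (-0.10), a difference that was not tested.

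The peripheral stalk, which holds the head still against rotation, is represented by 4 genes, all 4 of them lower, with a median log2 change of -0.10. Atp5h, subunit d, had the highest level of the stalk per kb of the principal transcript, at 313 CPM per kb. It measured 234 and 214 CPM in WT libraries 1 and 2, then 203 and 204 CPM in KO libraries 1 and 2, with the KO libraries nearly equal and below both WT libraries (log2 change -0.14, SE 0.06). Of its 50-base words, 47.9% also occur in other annotated transcripts, among them several processed copies, so part of its reads may have been set aside as multiply aligned. Atp5o, Atp5f1 and Atp5j had log2 changes from -0.13 to -0.019. Among the other membrane subunits, Atp5k (subunit e, which helps enzymes pair into dimers) had 43.0 and 40.2 CPM in the WT libraries and 37.2 and 36.3 CPM in the KO libraries. Both KO libraries were lower, with a log2 change of -0.18 (SE 0.07). Atp5j2, subunit f, was read at 103 and 92.5 CPM in WT, against 87.7 and 87.5 CPM in KO, with WT library 2 nearer to the KO libraries than to WT library 1 (log2 change -0.16, SE 0.06). Atp5l, subunit g, was read at only 1.12 to 1.65 CPM. It shares 84.8% of its 50-base words with other transcripts, among them 12 annotated pseudogenes, and its value of 0.087 (SE 0.31) says little about the gene.

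**Figure D5:**
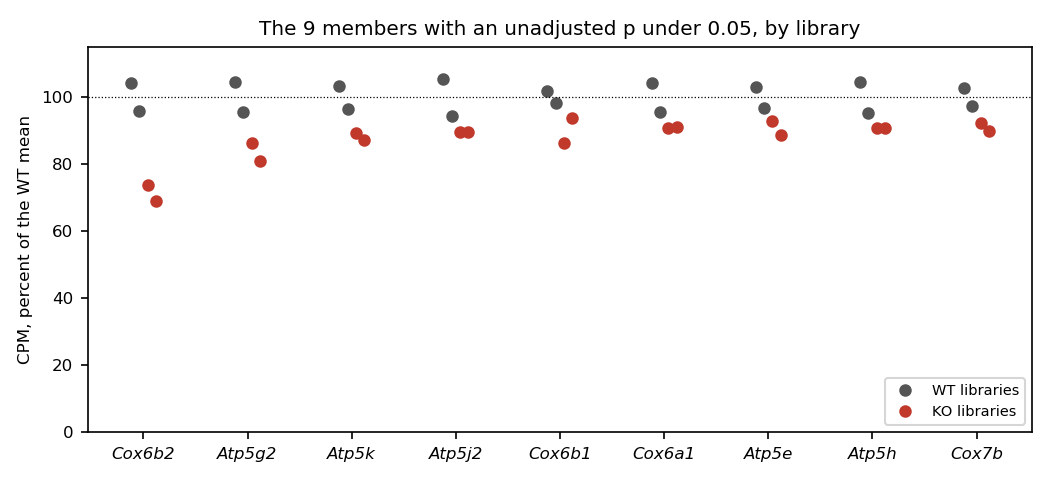
CPM in each library, as a percent of the WT mean, for the 9 members with an unadjusted p under 0.05, with WT libraries in grey and KO libraries in red (library 1 to the left of library 2). In each gene both KO libraries lie below both WT libraries, and the KO mean runs from 71.5% (Cox6b2) to 91.1% (Cox7b) of the WT mean.

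The c subunit, whose ring turns as protons pass, is made from 3 genes whose proteins end in the same 78 residues behind different leader sequences. Their transcripts can be told apart because the shared end of 78 codons differs at silent positions. The coding sequences of those codons are shown, from GENCODE M21 transcripts of GRCm38 and read along the coding strand, because they show which reads can separate the paralogs. Capitals mark the 63 of 234 bases that differ between any of the 3.
Atp5g1: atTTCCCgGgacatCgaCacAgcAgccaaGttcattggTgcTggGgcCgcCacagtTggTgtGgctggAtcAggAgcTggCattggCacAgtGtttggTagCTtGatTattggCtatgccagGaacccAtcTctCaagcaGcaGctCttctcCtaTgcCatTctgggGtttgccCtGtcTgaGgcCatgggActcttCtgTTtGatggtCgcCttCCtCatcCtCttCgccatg
Atp5g2: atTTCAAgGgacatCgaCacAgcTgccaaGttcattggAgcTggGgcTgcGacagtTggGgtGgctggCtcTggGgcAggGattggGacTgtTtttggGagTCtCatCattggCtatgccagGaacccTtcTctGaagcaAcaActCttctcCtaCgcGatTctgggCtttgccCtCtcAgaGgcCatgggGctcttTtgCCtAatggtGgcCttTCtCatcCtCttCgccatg
Atp5g3: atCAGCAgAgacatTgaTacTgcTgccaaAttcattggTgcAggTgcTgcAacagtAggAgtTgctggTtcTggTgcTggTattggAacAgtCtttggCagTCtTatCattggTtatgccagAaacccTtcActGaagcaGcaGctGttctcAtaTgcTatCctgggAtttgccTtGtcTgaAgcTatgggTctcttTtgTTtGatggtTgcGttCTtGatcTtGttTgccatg
Atp5g1 and Atp5g2 are the closest pair, with 36 differing bases, 84.6% identity and a longest identical run of 20 bases. Atp5g3 differs from them by 50 and 53 bases. Of the 36 differences in the closest pair, 33 fall on the third base of a codon.

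Atp5g3 supplied most of the c-subunit reads in all libraries, from 81.3% to 83.3% of the summed CPM of the 3 genes. It measured 197 and 178 CPM in WT libraries 1 and 2, then 177 and 172 CPM in KO libraries 1 and 2, with WT library 2 nearly level with KO library 1 and a log2 change of -0.11 (SE 0.06). Atp5g2 had 17.8 and 16.3 CPM in the WT libraries and 14.7 and 13.8 CPM in the KO libraries. Both KO libraries were lower, and the log2 change of -0.26 (SE 0.10, adjusted p = 0.547) was the largest among the members after those of Cox6b2 and Atp5s. Of its 50-base words, 87.4% occur in other annotated transcripts such as the copy Gm10175, so its count may cover only part of its RNA. Atp5g1 was read at 23.2 and 24.8 CPM in WT, against 20.8 and 24.96 CPM in KO, and KO library 2 was the highest of the 4. The share of Atp5g2 in the 3 genes was 7.49% and 7.43% in WT and 6.94% and 6.56% in KO.

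The inhibitor Atpif1, which blocks the enzyme from running backwards, measured 61.6 and 57.1 CPM in WT libraries 1 and 2, then 55.1 and 55.5 CPM in KO libraries 1 and 2. The KO libraries were the lower ones, with a log2 change of -0.10 (SE 0.06). Atpaf1, the chaperone of the beta subunit, had 13.1 and 12.7 CPM in the WT libraries and 15.4 and 12.5 CPM in the KO libraries. Its value above 0, 0.11 (SE 0.12), came from KO library 1, and without that library it was below 0. Atpaf2, the chaperone of the alpha subunit, had a log2 change of -0.032 with overlapping groups. Atp5s, a coupling factor of low level, was read at 6.09 and 4.45 CPM in WT, against 4.17 and 3.91 CPM in KO. WT library 1 stood apart from the other 3, and the log2 change of -0.39 (SE 0.20) ranged from -0.60 to -0.14 as each library was left out. Atp5sl, which despite its name takes part in building complex I, measured 54.3 and 55.8 CPM in WT libraries 1 and 2, then 53.9 and 52.6 CPM in KO libraries 1 and 2, a log2 change of -0.047.

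Genes of these complexes and of their partners that the name rule does not take were counted in the same way. Of 19 tested further subunits and factors of complex IV, 15 were lower, with a median log2 change of -0.072. Of the 19, 8 were lower without overlap, against 20.1% of all genes, and 0 passed the adjusted threshold. With an unadjusted p under 0.05, 4 were lower, against 4.01% of all genes. Those 4 were Ndufa4, a late-joining subunit (-0.18, SE 0.08), Coa3, a partner of Cox14 in early assembly (-0.18, SE 0.07), Higd2a, an assembly and supercomplex factor (-0.20, SE 0.06), and Cmc2, a small twin-cysteine protein (-0.25, SE 0.09). Of 13 further genes of the ATP synthase and its partners, which include mitochondrial carriers such as Slc25a4, 12 were lower, with a median of -0.097. Of these 13, 8 were lower without overlap, against 20.1% of all genes. Tmem242, a factor in c-ring assembly, was the only one of them with an unadjusted p under 0.05. It was read at 44.3 and 42.2 CPM in WT, against 36.2 CPM in each KO library, with a log2 change of -0.26 (SE 0.06, adjusted p = 0.443). Of the mitochondrially encoded partners, mt-Co1, the catalytic core of complex IV, had 5562 and 5866 CPM in the WT libraries and 5357 and 4683 CPM in the KO libraries (log2 change -0.19, SE 0.07, adjusted p = 0.547). In mt-Co1 WT library 2 was the highest, unlike in most nuclear members. The files list mt-Co2, mt-Co3, mt-Atp6 and mt-Atp8 at 0 counts in every library, so they were not compared.

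Promoter sequences, from 250 bases before to 50 after a RefSeq start (GRCm38.p6), were matched for 40 of the 45 genes. A RefSeq start need not be the outer end of the gene as counted. It lies inside the counted gene for Atp5g2 (chr15:102662864-102672352) and outside it for Atpif1. The promoter sequences were searched on both strands for the letters of 5 motifs of factors known to bind respiratory chain promoters. A match is only a description of letters. The NRF1 letters GCGCANGCG, which can overlap themselves across strands, were found in 9 of the 40 (22.5%) and in 8 of 24 structural subunits (33.3%), against 7.03% of 27025 promoters of all genes and 9.63% of those of protein-coding genes. The ETS letters CCGGAAG were found in 15 (37.5%) and in 8 of 24 structural subunits (33.3%), against 9.93% of all and 12.9% of protein-coding genes. The YY1 letters AAGATGGCG were found in 5 (12.5%) and in 2 of 24 structural subunits (8.33%), against 1.64% of all and 2.14% of protein-coding genes. The Sp1 letters GGGCGG were in 21 (52.5%) against 38.2% of all and 49.2% of protein-coding genes, and the ERR letters TCAAGGTCA in 1. Members with the NRF1 letters had a median log2 change of -0.12 and those without -0.078. With and without the ETS letters the medians were -0.12 and -0.10, and with and without the YY1 letters -0.047 and -0.10. The 250 bases before the start are shown for 4 members that had an unadjusted p under 0.05 and the NRF1 letters, and for Cox6b2, which had the largest difference and none of the NRF1, ETS or YY1 letters. Each is written 5′ to 3′ on the minus strand, the coding strand of each gene, and capitals mark NRF1 and ETS matches (CTTCCGG is ETS on the other strand).
Cox6a1, chr5:115348959-115349208: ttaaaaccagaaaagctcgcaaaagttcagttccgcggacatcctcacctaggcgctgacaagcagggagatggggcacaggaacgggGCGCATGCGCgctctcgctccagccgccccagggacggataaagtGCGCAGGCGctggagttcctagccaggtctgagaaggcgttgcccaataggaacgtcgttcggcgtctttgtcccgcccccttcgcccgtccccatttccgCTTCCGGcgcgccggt
Atp5h, chr11:115419920-115420169: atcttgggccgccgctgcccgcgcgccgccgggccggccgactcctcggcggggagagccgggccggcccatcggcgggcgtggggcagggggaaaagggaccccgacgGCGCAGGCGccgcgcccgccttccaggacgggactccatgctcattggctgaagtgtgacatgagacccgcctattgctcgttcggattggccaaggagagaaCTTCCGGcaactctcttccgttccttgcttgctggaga
Atp5k, chr5:108434400-108434649: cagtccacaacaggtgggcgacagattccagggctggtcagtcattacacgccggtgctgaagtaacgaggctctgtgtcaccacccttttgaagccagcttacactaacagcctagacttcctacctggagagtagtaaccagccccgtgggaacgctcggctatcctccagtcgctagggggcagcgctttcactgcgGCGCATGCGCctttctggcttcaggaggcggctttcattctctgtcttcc
Atp5g2, chr15:102671048-102671297: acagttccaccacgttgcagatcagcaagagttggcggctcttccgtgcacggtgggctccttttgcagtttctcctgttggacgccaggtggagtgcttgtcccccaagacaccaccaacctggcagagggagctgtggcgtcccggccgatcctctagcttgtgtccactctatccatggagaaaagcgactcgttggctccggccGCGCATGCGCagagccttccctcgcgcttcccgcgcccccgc
Cox6b2, chr7:4753095-4753344: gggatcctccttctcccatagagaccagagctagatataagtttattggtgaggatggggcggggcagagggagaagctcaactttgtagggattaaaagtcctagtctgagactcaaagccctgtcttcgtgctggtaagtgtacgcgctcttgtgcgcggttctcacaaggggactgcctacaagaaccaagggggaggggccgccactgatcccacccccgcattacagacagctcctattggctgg
The 4 members printed with NRF1 letters had log2 changes from -0.26 to -0.14, and Cox6b2 had -0.49. Those 4 and Cox6b2 were picked by their differences, so these values do not compare members with and without the letters. Of all 9 members with the NRF1 letters 8 were lower, and of the 31 without them 28 were lower. The part of the letters in the differences was not tested.

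Over the members, counts per library ran from 25 to 31555 and standard errors from 0.05 to 0.40, with 35 of 45 under 0.1 on the log2 scale. In the authors' deposited table, 27 genes are marked higher and 19 lower, and 0 of the 45 are among them. The smallest adjusted p of a member in the authors' deposited table is 0.115, again for Cox6b2, with a log2 change of -0.49. Reads of 8 members were doubtful because over 50% of the 50-base words of their transcripts recur in other annotated transcripts, while 21 members shared less than 5%. Of the 9 members with an unadjusted p under 0.05, Cox6b1, Cox6b2 and Atp5e shared 0%, Cox7b, Atp5k and Atp5j2 shared 0.63% to 3.75%, and Cox6a1, Atp5h and Atp5g2 shared 12.3%, 47.9% and 87.4%.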

How the data were processed

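The deposited values are raw counts per gene of 4 libraries, 2 per group. Per the submitters' processing notes, the authors trimmed reads with Trimmomatic 0.33, aligned them to mm10 with STAR 2.5.2, counted with HTSeq and tested with edgeR. The sources used here do not name the strand setting, and reads with more than 1 alignment (23.2% to 24.7%) are not in the deposited counts per gene. The authors' deposited table also holds CPM, log2 fold changes, p-values and adjusted p-values, and a score (likelihood ratio), per the file headers.

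The main test was edgeR 4.0.16's quasi-likelihood F test (R 4.3.3) with filterByExpr (minimum count 10, total 15), TMM factors and no term but group, and p-values were adjusted by Benjamini-Hochberg over 13281 genes, threshold 0.05. It was tested on simulated data. CPM printed here use library totals scaled by TMM factors (0.999 to 1.001). Alternatives were edgeR's likelihood ratio test, DESeq2 1.42.0, other scalings and filters, a replicate block, a length offset and leaving out each library. The replicate numbers of the 2 groups name samples and pair nothing in the labels. P-values rest on the spread between 2 mice per group, or, with a library left out, that of the other group's 2 mice. For each gene this spread is drawn toward the trend over all genes.

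The members, the lists and the rule for named genes (those with an unadjusted p under 0.05, the c-ring genes, isoform pairs, and per role the highest level per length and the largest change) were chosen with earlier results of these data known.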

Additional observations from a re-analysis of the deposited data

How the results depend on the processing

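The number of genes called was 3 and became 101 with the likelihood ratio test, 22 with DESeq2, 191 without a filter on low counts, 27 with a replicate block, 5 with a length offset and 118 with both, and 41 to 365 as each library was left out. Members called were 0 in these fits except 1 without a filter (Cox6b2) and 0 to 6 as each library was left out (6 without WT library 2), and the cause was not tested. At an unadjusted p under 0.05, 9 members were lower in the reported fit, against 4.01% of all 13281 genes tested. The likelihood ratio test gave 7 members (3.8% of all genes) and the block 7 (3.63%). DESeq2 gave 2 (1.11% of 20968 genes) and the fit without a filter 15 (3.98% of 20968). The length offset gave 12 (5.64% of 13184). The block is no pairing of mice: deviations of same-numbered libraries correlated at 0.0246 over 8653 genes. The members' median lay between -0.136 and -0.047 over the fits with a library left out, with the value nearest 0 without WT library 1.

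Cox15 turned to -0.011 with the length offset and to -0.012 with the offset and block. Over the fits with a library left out, 30 members stayed lower, 1 (Cox11) stayed higher and 14 changed sign. These 14 ranged from -0.102 to 0.060 (Atp5j), -0.089 to 0.060 (Cox7a2l), -0.098 to 0.020 (Atp5b), -0.105 to 0.036 (Atpaf2), -0.093 to 0.018 (Sco1), -0.327 to 0.122 (Sco2), -0.164 to 0.390 (Atp5l), -0.003 to 0.025 (Cox15), -0.110 to 0.006 (Cox10), -0.580 to 0.302 (Cox7a1), -0.051 to 0.045 (Cox16), -0.207 to 0.056 (Atp5g1), -0.053 to 0.258 (Atpaf1) and -0.087 to 0.022 (Cox19).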
